A study of Mus musculus with 8 samples.

Results

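The genes described here are 9 genes of the contractile apparatus and its YAP and SRF target programme: Acta2, Tagln, Cnn1, Myl9, Tpm1, Tpm2, Actg2, Thbs1 and Ctgf. They were taken by symbol from single-cell RNA-seq count tables of mouse embryonic stem (mES) cells, and all 9 were among the 54146 gene rows of both tables. The mES cells, labelled as derived from the inner cell mass and given in the methods as wild-type E14 cells, were grown on mouse embryonic fibroblast (MEF) feeder cells in LIF/2i medium for 2 days. One library (Control) came from untreated cells and the other from cells treated with CX-5461, an inhibitor of RNA polymerase I, whose dose and duration the labels do not give for these libraries. Each condition has 4 samples in the labels, but its barcodes carry no sample of origin, and the methods speak of a single biological replicate. Each condition therefore counts as 1 library here. The differences below are therefore between those libraries, have no replicate check, and come with no p-value. Differences between the cultures, their feeder cells or the library preparations cannot be told apart from the treatment.

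In fibroblasts, smooth muscle α-actin and its partners are assembled into contractile stress fibres. Their genes are controlled by serum response factor (SRF), which acts with myocardin-related transcription factors that are held in the cytoplasm by unpolymerised actin. Thbs1 and Ctgf, which encode secreted matrix-associated proteins, are widely used readouts of YAP and TAZ, coactivators that bind DNA through TEAD factors and respond to cell spreading and tension. MEFs on stiff culture plastic commonly show a myofibroblast-like contractile programme, whereas naive mES cells do not form such fibres.

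All 9 genes were protein coding, and their positions are given on GRCm38. Acta2 lies at chr19:34241090-34255590 on the minus strand, Tagln at chr9:45929619-45936058 on the minus strand, Cnn1 at chr9:22099216-22109630 on the plus strand and Myl9 at chr2:156775420-156781658 on the plus strand. Tpm1 lies at chr9:67022590-67049406, Tpm2 at chr4:43514711-43523765 and Actg2 at chr6:83512905-83536265, each on the minus strand. Thbs1 lies at chr2:118111876-118127133 and Ctgf at chr10:24595442-24598683, both on the plus strand, the latter under its newer symbol Ccn2. Tagln, Thbs1 and Ctgf are overlapped by annotated genes on the opposite strand. The use of strand in the counting is not given in the sources used here, so reads of those overlaps cannot be assigned with certainty. No UMI of any of the 9 genes was marked as shared with another gene in either table.

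RefSeq promoter windows (GRCm38.p6, 250 bases before to 50 after the start) were at hand for 5 of the 9 genes, namely Acta2, Cnn1, Myl9, Tpm1 and Tpm2. They were searched on both strands for the CArG box bound by SRF (CC, then 6 bases that are each A or T, then GG) and for the TEAD motif (GGAATG or CATTCC). They were also searched for the AP-1 motif (TGANTCA). An exact CArG box was found in the Myl9 window only, starting 161 bases before the RefSeq start, against 1.63% of all 32851 windows. Sites that depart from the pattern by a base were not searched for, so the other windows may still hold such sites. A TEAD motif was found in the Acta2 window, 146 bases before the RefSeq start, and in the Tpm1 window, 56 bases before it, against 14.7% of all windows. Both TEAD matches lie inside the gene spans given above, which begin further upstream than the RefSeq starts of these windows. No AP-1 motif was found in the 5 windows (7.81% of all windows). The 3 matching stretches are shown because they are the letters through which SRF and TEAD factors are known to bind, with the motif in capitals and each read 5′ to 3′ on the strand of its gene; a match is a description of sequence and not evidence of binding.
Myl9, CArG box, chr2:156775278-156775337, plus strand: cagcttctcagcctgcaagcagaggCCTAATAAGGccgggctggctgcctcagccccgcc
Acta2, TEAD motif, chr19:34255487-34255546, minus strand: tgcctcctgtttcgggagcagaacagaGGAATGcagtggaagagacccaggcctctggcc
Tpm1, TEAD motif, chr9:67049237-67049296, minus strand: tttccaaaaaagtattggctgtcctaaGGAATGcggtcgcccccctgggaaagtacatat

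After cells under 500 unique molecular identifiers (UMIs, 1 per captured RNA molecule) or over 0.2 of UMIs on mitochondrial genes were left out, 3767 of 3838 Control and 4697 of 4922 CX-5461 barcodes were kept. Feeder cells were those with at least 0.1% of their UMIs on Col1a1, Col1a2 and Col3a1, fibrillar collagen genes that are not among the 9. This rule took 141 Control cells (3.74% of kept cells) and 146 CX-5461 cells (3.11%). Their median depth was 22538 and 24958 UMIs and their mitochondrial share 1.91% and 3.12%. The label of feeder cell was borne out by 16 other fibroblast genes, all detected, which held a median of 0.262% and 0.349% of UMIs, against 0.0% in the cells below the limit. The 9 ES marker genes held 0.0229% and 0.0128% of the UMIs of feeder cells.

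The cells below the collagen limit were not all ES cells. In 86 Control cells and 48 CX-5461 cells the ES markers took under 0.2% of UMIs. In the Control library these cells also carried fibroblast genes (median 0.157% of UMIs), whereas in the CX-5461 library they carried few (0.00982%). Of the 11945 UMIs of the 9 genes found below the limit in the Control library, 9230 (77.3%) lay in those 86 cells. In the CX-5461 library 1625 of 5379 (30.2%) lay in the 48 cells. ES cells are therefore described below as the 3540 Control and 4503 CX-5461 cells below the collagen limit whose ES markers reached 0.2% of UMIs, a definition chosen after the data were seen, and the values over all cells below the limit are given beside them. Just inside the collagen limit, at 0.1 to 0.2% of UMIs, were 75 Control and 27 CX-5461 cells, and just outside it, at 0.05 to 0.1%, were 34 and 6.

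In feeder cells the 9 genes together were 2.52-fold lower in the CX-5461 library than in the Control library. Their summed level was 6690 CPM (counts scaled to 1000000 UMIs of the class) in Control and 2660 in CX-5461 (95% interval of the fold 2.46 to 2.58). All intervals cover counting error only, and cells of a library differ by more than that. A gene was measured when the feeder cells of the libraries held 20 or more of its UMIs in all, and was called higher or lower when its whole interval lay beyond 1.5-fold. By this rule 8 of the 9 genes were lower in CX-5461 feeder cells and none was higher. The background over the 10680 genes measured was 4.33% lower and 7.06% higher. The 9 genes were chosen with earlier results of these data known, so this and later contrasts with all genes are descriptions and not tests. The median log2 ratio of the 9 genes was -1.40, against 0.166 for all genes.

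The actin genes and their closest partners come first. Acta2, smooth muscle α-actin, stood at 2490 CPM in Control feeder cells and 948 CPM in CX-5461 feeder cells, 2.63-fold lower (2.53 to 2.74). The median Control feeder cell held 32 UMIs of Acta2 and the median CX-5461 feeder cell 3. In 27 Control cells but 7 CX-5461 cells at least 100 Acta2 UMIs were counted, so the libraries overlapped while their middle cells stood apart. Actg2, the γ-actin of enteric smooth muscle, stood at 105 CPM in Control and 28.9 CPM in CX-5461, 3.63-fold lower (2.91 to 4.55). It was found in a minority of cells, 23.4% and 13.7%, and the top 10% of cells held 86.3% and 95.3% of its UMIs.

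Tagln, transgelin or SM22α, an actin-bundling protein and classical SRF target, stood at 908 CPM in Control and 183 CPM in CX-5461 feeder cells, 4.96-fold lower (4.56 to 5.40). The share of feeder cells with a Tagln UMI was 81.6% (Clopper-Pearson 74.2 to 87.6) in Control and 62.3% (53.9 to 70.2) in CX-5461. Cnn1, calponin, which binds actin and dampens myosin ATPase, stood at 62.5 CPM and 11.9 CPM, 5.26-fold lower (3.78 to 7.47). Cnn1 was seen in 31.9% and 7.53% of feeder cells, and 1 CX-5461 cell held 26 of the library's 44 feeder UMIs. With the highest cell left out of each library, Cnn1 was 11.1-fold lower.

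Myl9, the regulatory light chain of smooth muscle and non-muscle myosin, stood at 191 CPM in Control and 76.3 CPM in CX-5461 feeder cells, 2.50-fold lower (2.17 to 2.89), and was seen in 63.1% and 39.0% of cells. The tropomyosins, which lie along the actin filament and set its access to myosin, differed from each other. Tpm2 stood at 1120 CPM and 451 CPM, 2.47-fold lower (2.33 to 2.62). Tpm1 stood at 1210 CPM and 837 CPM, 1.45-fold lower (1.38 to 1.52), and was the 1 gene of the 9 that was not called. Tpm1 passed the 1.5-fold rule when the libraries were scaled by the trimmed mean of M values (TMM), at 1.63-fold lower. Both tropomyosins were found in nearly all feeder cells, Tpm1 in 97.2% of Control cells and all 146 CX-5461 cells and Tpm2 in 97.2% and 97.3%.

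The secreted proteins were lower as well. Thbs1, thrombospondin 1, an activator of latent TGF-β, stood at 587 CPM in Control and 113 CPM in CX-5461 feeder cells, 5.20-fold lower (4.68 to 5.80). It was present in 83.7% and 67.8% of cells, and its highest cell held 133 and 25 UMIs. Ctgf, connective tissue growth factor, stood at 18.7 CPM and 7.55 CPM, from 61 and 28 UMIs, 2.47-fold lower (1.56 to 4.02). The Ctgf call was lost when each cell was thinned to 3100 UMIs and under 4 other definitions of a feeder cell, with the direction kept.

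**Figure D1:**
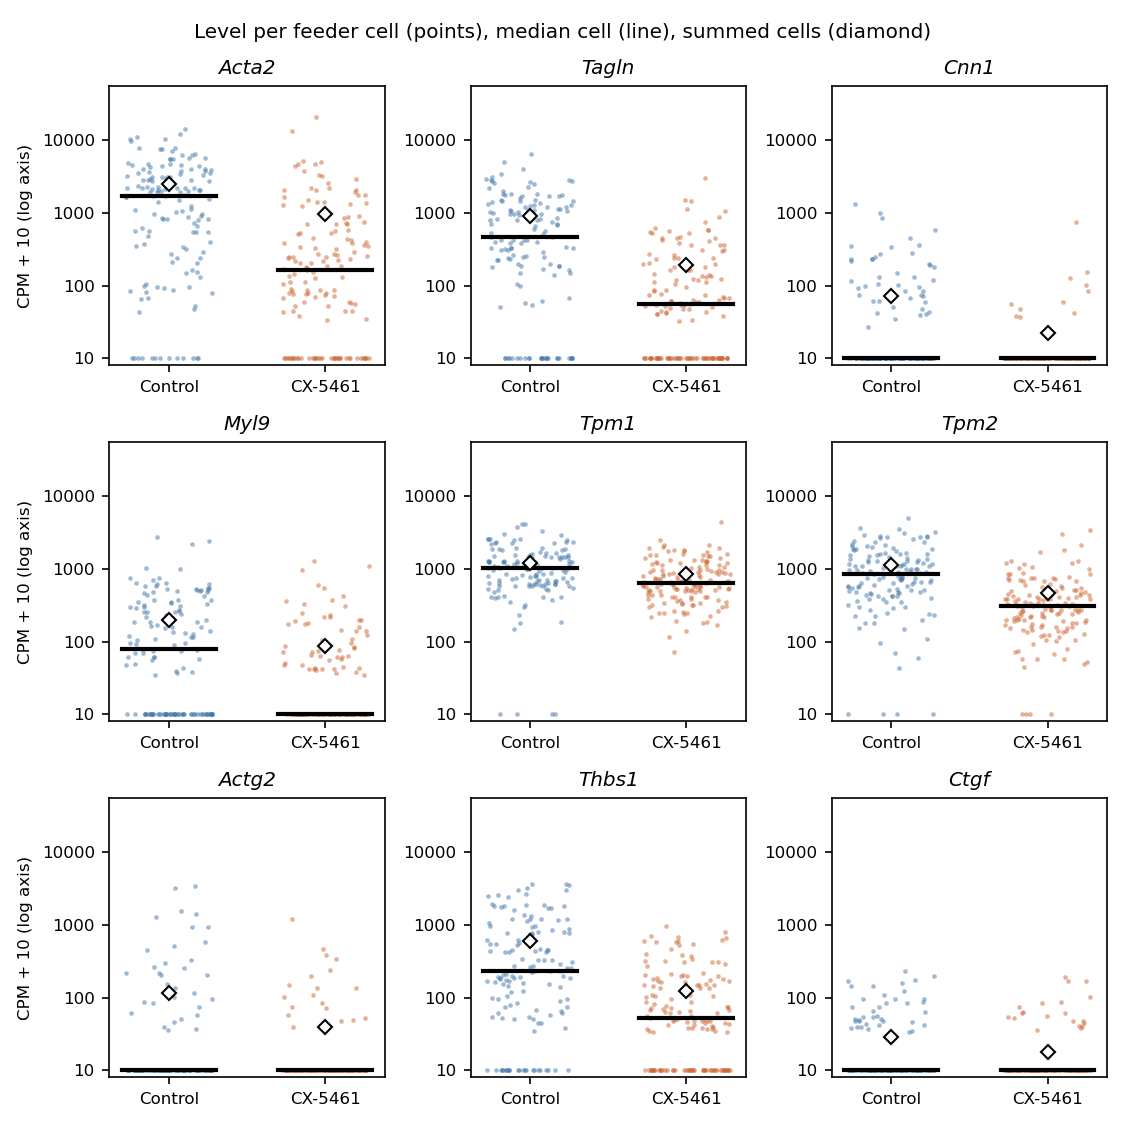
Level of each of the 9 genes in single feeder cells of the Control (141 cells) and CX-5461 (146 cells) libraries, as CPM plus 10 on a log axis; points are cells, black lines the median cell and diamonds the CPM of the summed cells. The median Acta2 cell stood at 1700 CPM in Control and 156 CPM in CX-5461, whereas the Tpm1 clouds lay close together, at medians of 1030 and 640 CPM.

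The shares were also read at matched depth. With every feeder cell thinned to 3100 UMIs, which left out 1 Control cell, Acta2 was detected in 79.3% of Control and 45.9% of CX-5461 feeder cells. Tagln was detected in 65.0% and 20.5% and Thbs1 in 58.6% and 23.3% of the thinned cells. At least 10 UMIs of the 9 genes together were counted in 66.4% of thinned Control cells and 17.8% of thinned CX-5461 cells, while without thinning the shares were 95.7% and 94.5%. A limit of 10 UMIs asks for a higher level in a cell thinned to 3100 UMIs than in an unthinned cell. The thinned and unthinned shares therefore measure different levels, and the unthinned share was near its ceiling in both libraries.

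The programme was uneven among feeder cells. The top 10% of Control feeder cells held 41.0% of the Acta2 UMIs, and the top 10% of CX-5461 feeder cells held 69.3%. The variance of thinned Acta2 counts was 11.1 times their mean in Control and 20.7 times in CX-5461, where 1 cell held 729 of the 3514 Acta2 UMIs. Without the highest cell of each library Acta2 was 3.20-fold lower. For Tpm1 the top 10% of cells held 30.4% and 31.2%.

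Feeder cells of CX-5461 carried more collagen, with a median of 0.333% of UMIs against 0.193% in Control, so the 9 genes were also read at like collagen share. At 0.1 to 0.2% collagen their summed level was 7630 CPM over 75 Control cells and 2007 CPM over 27 of CX-5461. At 0.2 to 0.5% it was 5507 CPM over 55 Control cells and 3144 CPM over 85 of CX-5461, the smallest gap of the 3 ranges. At 0.5% or more it was 6213 CPM over 11 Control cells and 1772 CPM over 34 of CX-5461. In the middle range Acta2 was 1.42-fold lower, Cnn1 2.09-fold and Actg2 1.90-fold, and the 3 genes lost their calls together with the uncalled Tpm1, while Thbs1 was 5.05-fold and Tagln 3.59-fold lower. The 9 genes were also high in the Control cells just outside the limit, at 9833 CPM in 34 cells, against 1035 CPM in 6 CX-5461 cells.

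**Figure D2:**
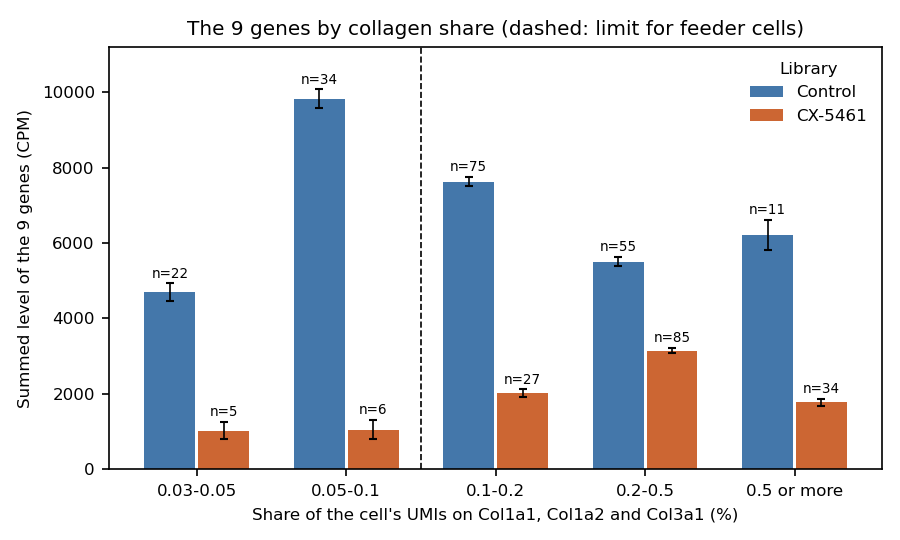
Summed level of the 9 genes (CPM, bars with 95% Poisson intervals) in Control and CX-5461 cells grouped by the share of their UMIs on the 3 collagen genes, with the number of cells above each bar; the dashed line marks the 0.1% limit for feeder cells. Control stands above CX-5461 in all 5 ranges, by the least at 0.2 to 0.5% (5507 against 3144 CPM).

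Across feeder cells thinned to 3100 UMIs (140 Control and 146 CX-5461 cells), the 9 genes were correlated to different degrees. The Pearson correlation of log-normalised levels between Acta2 and Tagln was 0.70 in Control and 0.58 in CX-5461, that between Acta2 and Tpm2 0.63 and 0.54, and that between Acta2 and Myl9 0.51 and 0.46. Acta2 correlated less with Actg2 (0.30 in both libraries), Cnn1 (0.37 and 0.29), Tpm1 (0.37 and 0.33) and Thbs1 (0.33 and 0.21). Ctgf stood at 0.25 with Acta2 in Control and at -0.11 in CX-5461, where its correlations with the other 8 genes lay between -0.11 and 0.023, against 0.0045 to 0.28 in Control. The cells of a correlation share 1 library, and sparse genes give weak correlations. Of 1656 genes that reached 200 UMIs in each library's feeder cells, those whose levels most resembled the summed 9 genes in both libraries included Actn1, Actg1, Tmsb4x and Lgals1. They also included Tpm4, Actb, Cald1, Wdr1 and Myl6. Their correlations were between 0.22 and 0.35 in Control and between 0.20 and 0.29 in CX-5461, against a 95th percentile of all ranked genes of 0.17 and 0.16. Most encode actins, actin-binding proteins or myosin light chains, a likeness the ranking did not use. They did not all move with the 9 genes between libraries: Actb was 3.33-fold lower in CX-5461 feeder cells, Cald1 stood at 824 and 844 CPM, and Tmsb4x at 3900 and 5630 CPM. The 5 genes least like the 9 were the metallothioneins Mt1 and Mt2, Ctsd, Aebp1 and Chchd10, at -0.21 to -0.37 in Control and -0.19 to -0.27 in CX-5461.

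Other genes of the pathway were read from lists of known members, which were also chosen with earlier results of these data known. Of all genes measured in feeder cells, 4.33% were called lower and 7.06% higher. Of 27 other contractile genes, all measured in feeder cells, 8 were lower in CX-5461, none was higher, and the median log2 ratio was -0.45. The lower ones were Acta1, from 57 to 4 UMIs, Lmod1, from 32 to 5 UMIs, and Mylk, the kinase of the myosin light chain, from 46 to 8 UMIs. Actb, cytoplasmic β-actin, stood at 5050 and 1520 CPM, and Cnn2, Tpm4, Myh9 and Fhl1 completed the 8. Of 13 measured SRF targets 3 were lower and none higher, and the median was -0.37. Those called were Egr1 (1.82-fold), the focal adhesion protein gene Vcl (2.20-fold) and Wdr1 (1.89-fold). The other 10 had no call, among them Fosb (ratio 1.73), Junb (1.25), Fos (0.99) and Zyx (0.729).

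Among YAP targets other than Thbs1 and Ctgf most were not called. Of 20 measured, 3 were lower (Amotl2, Axl and Crim1, 2.13-fold, 2.01-fold and 2.14-fold), 1 was higher (Gadd45a, 2.06-fold), and their median log2 ratio was -0.012. Over all genes measured in feeder cells 4.33% were lower and 7.06% higher, so 1 higher gene of 20 is not set apart from that share. Ankrd1, another common readout of YAP, stood at 7.35 CPM in Control and 13.8 CPM in CX-5461, with 24 and 51 UMIs and no call. Of the 22 measured genes of the SRF and YAP machinery none was called either way. Srf itself stood at 11.3 and 11.9 CPM, Yap1 at 19.9 and 25.1 CPM, and Rhoa, the GTPase that drives stress fibre assembly, at 283 and 171 CPM (1.65-fold lower, interval 1.49 to 1.83, not called). Myocd had no UMI in the feeder cells of either library. In the TGF-β pathway, which induces this programme in fibroblasts, 2 of 15 genes were lower, among them Ltbp1 (2.68-fold), and 1, Tgfbi, was higher (2.93-fold).

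**Figure D3:**
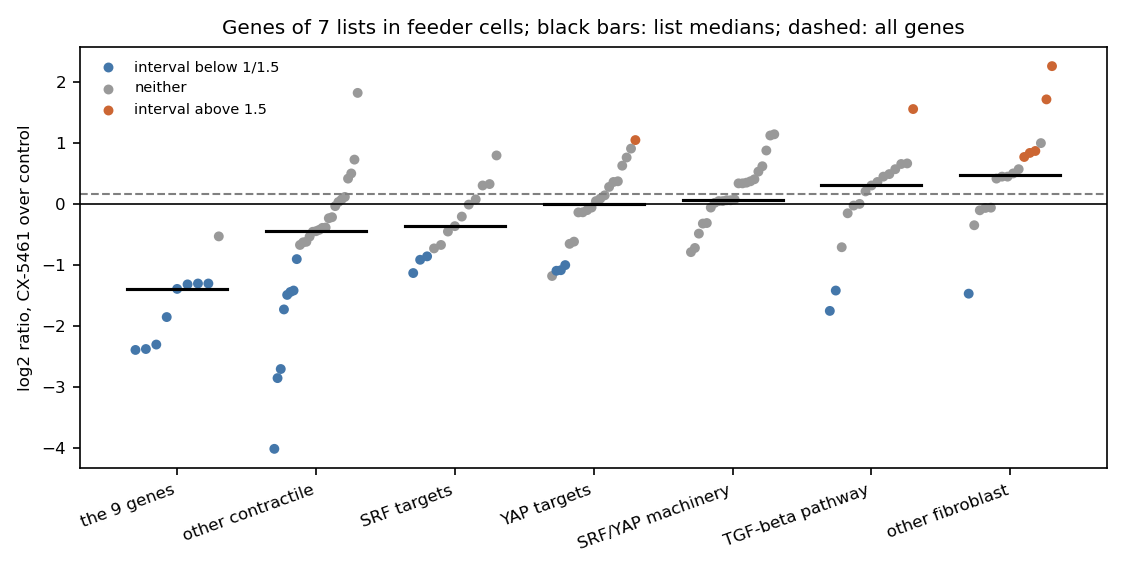
Log2 ratio of CX-5461 over Control in feeder cells for the measured genes of 7 lists; each point is a gene, coloured by whether its 95% counting interval lies wholly below 1/1.5, wholly above 1.5 or neither, black bars are list medians and the dashed line is the median of all genes. The 9 genes all lie below 0, with a median of -1.40, while the SRF/YAP machinery (median 0.065) is centred close to the median of all genes (0.166).

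Other genes of feeder cells were called in both directions, against 7.06% higher and 4.33% lower over all genes. Of the 16 other fibroblast genes 5 were higher in CX-5461 (Postn, from 79.9 to 381 CPM, Dcn, from 90.4 to 295 CPM, Col5a1, Col5a2 and Fbn1) and 1 was lower, S100a4, from 559 to 201 CPM. Of the collagens, which chose these cells and are given as a description, Col3a1 stood at 282 and 887 CPM. Among markers of other cell types, those of striated muscle, endothelium and macrophages were sparse in feeder cells. A smooth muscle or pericyte marker was seen in 42.6% of Control and 63.7% of CX-5461 feeder cells, and a keratinocyte marker in 53.9% and 80.8%. Of 8 smooth muscle and pericyte markers, 4 were measured, the list summed to 88.5 and 149 CPM, mostly from Des, Notch3 was higher, and the defining marker Myh11 had 0 and 4 UMIs. The 9 striated muscle markers summed to 5.51 and 8.36 CPM, the 6 endothelial markers to 2.76 and 3.78 CPM and the 7 macrophage markers to 15.6 and 17.0 CPM. The 9 keratinocyte markers summed to 96.8 and 146 CPM, mostly from Perp, which was higher, and Krt14 had 27 UMIs in Control and 0 in CX-5461. RNA of ES markers within feeder barcodes was lower in CX-5461, at 407 and 250 CPM, and Pou5f1 (58.8 and 21.0 CPM) and Zfp42 were called lower. Leaving out the feeder cells with 3 or more Pou5f1 UMIs gave a log2 ratio of -1.27 for the 9 genes, against -1.33 with them.

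In ES cells the 9 genes were far lower than in feeder cells. Their summed level was 60.5 CPM in Control and 58.2 CPM in CX-5461, a ratio of 0.962 (0.915 to 1.01). This ratio rests on scaling to class totals: the median log2 ratio of all genes in ES cells was 0.462, and TMM scaling divided ratios there by 1.32. Feeder cells stood 111-fold above ES cells in Control (106 to 115) and 45.7-fold in CX-5461 (44.0 to 47.4). In Control all 9 genes were called higher in feeder cells, against 22.2% of 15000 genes, and in CX-5461 8 of the 9, all but Ctgf, against 18.8% of 17505. Over all cells below the collagen limit, the sum was 258 CPM in Control and 82.7 CPM in CX-5461, a ratio of 0.320, and 7 of the 9 genes were called lower and Ctgf higher, against 6.39% lower and 27.0% higher of 18212 genes. Without the 86 and 48 low-marker cells the ratio was the 0.962 above.

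To give a scale for low levels in ES barcodes, the 16 other fibroblast genes were read in the same way, and 15 of them could be placed. Their level in ES cells was a median of 0.260% of that in feeder cells in Control, with a range of 0.089% to 4.54%, and 0.293% in CX-5461, with a range of 0.078% to 7.63%. Median depth was 12664 UMIs in ES cells and 22538 UMIs in feeder cells of Control, and 14114 and 24958 UMIs in CX-5461. In Control, Acta2 (0.157%), Tagln (0.123%), Cnn1 (0.214%), Myl9 (0.292%) and Actg2 (0.213%) lay within that range and Thbs1 (0.0759%) below it, so their UMIs in ES cells were not told apart from this background. Tpm2 stood at 0.525% in Control and 1.37% in CX-5461 and Tpm1 at 3.59% and 4.84%, also within the range. Tpm1 lay above every fibroblast gene but Pdgfrb, which alone set the top of the range (4.54% and 7.63%). This range therefore cannot tell whether the Tpm1 UMIs in ES cells were background. Ctgf stood at 24.8% in Control and 115% in CX-5461, and Cnn1 at 8.22% in CX-5461, above the highest fibroblast gene of their library. For Ctgf in CX-5461 the levels were 8.71 CPM in ES cells and 7.55 CPM in feeder cells, with a counting interval of 78.9% to 175% for the share. In Control they were 4.63 and 18.7 CPM. Whether the UMIs of these genes in ES cells came from free RNA, from mixed droplets or from the ES cells' own RNA was not tested.

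**Figure D4:**
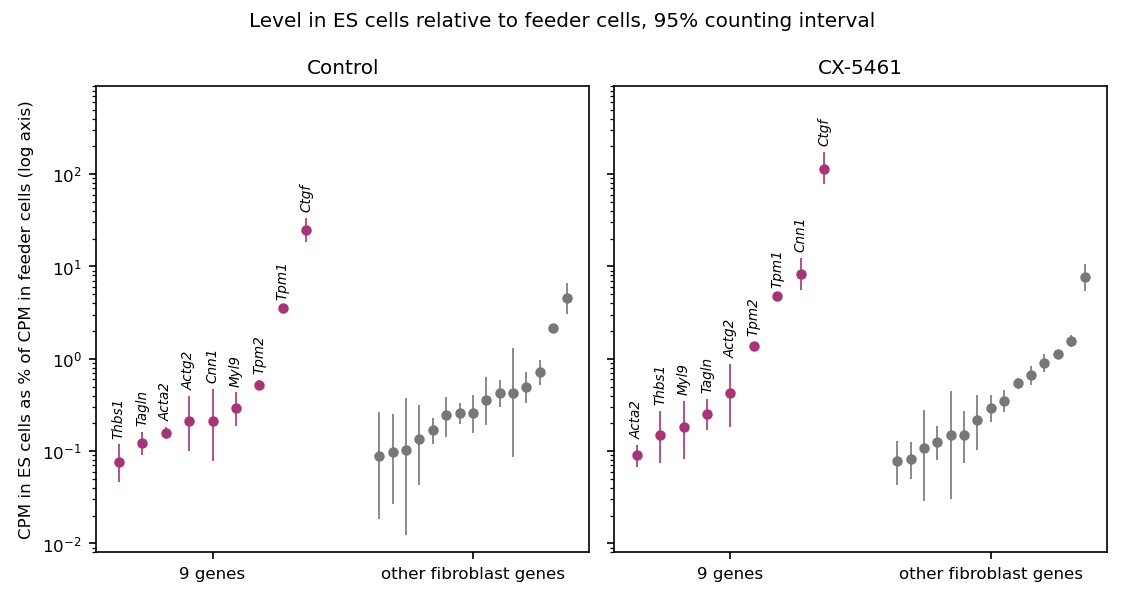
Level in ES cells as a percentage of the level in feeder cells, on a log axis, for the 9 genes (labelled) and the other fibroblast genes (grey) in the Control and CX-5461 libraries, with 95% counting intervals. Most of the 9 lie among the fibroblast genes; Ctgf lies above them in both libraries (24.8% and 115%) and Cnn1 in CX-5461 (8.22%).

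Between the libraries, 2 of the 8 genes measured in ES cells were higher in CX-5461 (Cnn1 and Ctgf) and 2 were lower (Acta2 and Myl9). With TMM scaling, Cnn1 alone was higher and 4 genes were lower, Tagln and Thbs1 in addition to Acta2 and Myl9. The background in ES cells was 28.4% higher and 5.43% lower of 17948 genes, with a median log2 ratio of 0.462, so a higher call was common there. Acta2 stood at 3.92 CPM in Control and 0.852 CPM in CX-5461, from 176 and 55 UMIs, 4.60-fold lower (3.38 to 6.35). Myl9 stood at 0.557 and 0.139 CPM, from 25 and 9 UMIs, 3.99-fold lower. In CX-5461 ES cells they stood at 0.0899% and 0.183% of their feeder level, within the range of the fibroblast genes.

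Ctgf stood at 4.63 CPM in ES cells of Control and 8.71 CPM in those of CX-5461, from 208 and 562 UMIs, a ratio of 1.88 (1.60 to 2.21). It was seen in 5.45% of Control and 10.5% of CX-5461 ES cells, and in 1.17% and 2.94% of ES cells thinned to 3100 UMIs, which left out 809 and 20 cells. With TMM scaling the ratio was 1.43 (1.21 to 1.68), and the call was lost; on the totals, 69.0% of genes lay below it. Cnn1 rested on 6 UMIs in Control and 63 in CX-5461, a ratio of 7.30 (3.17 to 20.7), and 5.54 with TMM scaling. No ES cell held more than 2 Cnn1 UMIs, and its shares were 0.169% and 1.35%. Summed levels of markers of other cell types were also higher in CX-5461 ES cells, where 28.4% of all genes were called higher. The 8 smooth muscle and pericyte markers summed to 9.64 CPM in Control and 77.2 CPM in CX-5461, with all 5 measured genes called higher. Among them Myh11 had 0 and 137 UMIs and Des 316 and 2751. The 9 keratinocyte markers summed to 22.5 and 202 CPM, with all 5 measured genes higher. The 9 striated muscle markers summed to 15.3 and 24.3 CPM, with 5 of 7 measured genes higher and 1 lower. The 6 endothelial markers summed to 14.1 and 29.9 CPM, with 2 of 4 measured genes higher and 0 lower. The 7 macrophage markers summed to 6.73 and 27.0 CPM, with 1 gene measured, which was higher. The part of these markers in the Cnn1 and Ctgf differences was not tested.

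Tpm1 was the gene of the 9 with a level in many ES cells, at 43.6 CPM in Control and 40.5 CPM in CX-5461 (ratio 0.930, 0.877 to 0.986), in 36.5% and 41.2% of cells. With TMM scaling the Tpm1 ratio was 0.705 (0.665 to 0.748), again without a call. After thinning, 12.2% and 12.0% of ES cells held a Tpm1 UMI. Tpm2 stood at 5.86 and 6.20 CPM, a ratio of 1.06 that turned to 0.802 with TMM scaling. Tagln (50 and 30 UMIs) and Thbs1 (20 and 11 UMIs) were lower without a call, and Actg2, with 10 and 8 UMIs, was under the minimum.

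**Figure D5:**
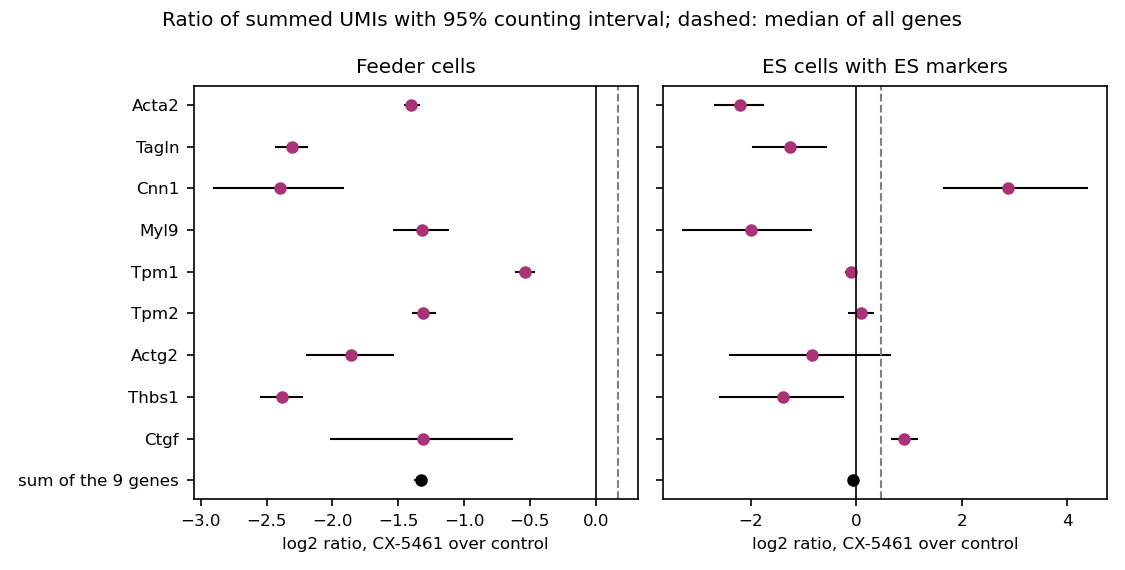
Log2 ratio of CX-5461 over Control, with 95% counting intervals, for the 9 genes and their sum in feeder cells (left) and in ES cells with ES markers (right); the axes have different ranges and the dashed lines mark the median of all genes. In feeder cells the 9 genes lie at -0.54 to -2.40; in ES cells Cnn1 (2.87) and Ctgf (0.91) lie to the right of 0 and Acta2 (-2.20) and Myl9 (-2.00) to the left.

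The other pathway genes were read in ES cells too. Of 19 measured YAP targets 6 were higher in CX-5461 and none lower, a share near the 28.4% of all genes called higher, and the median log2 ratio was 0.627 against 0.462 for all genes. They included Ptpn14 (2.61 to 27.4 CPM), Cyr61 (6.37 to 18.4 CPM, listed as Ccn1) and Myof (8.84 to 24.7 CPM). Of 26 other contractile genes 7 were higher, again near that share, such as Cald1 (130 to 322 CPM) and Tns1 (3.30 to 13.7 CPM). Another 3 were lower, among them Actb (1670 to 1000 CPM), while 5.43% of all genes were called lower in ES cells. Actb, Cnn2 and Fhl1 were called lower in both feeder and ES cells. Lmod1, Axl and Crim1 were lower in feeder cells and higher in ES cells, with the difference not tested. How many of all genes have such pairs of calls was not counted, so these names are examples only. Genes of this paragraph that the naming rule for feeder cells does not give were chosen with their values known.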

How the data were processed

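Droplet single-cell RNA-seq tables were used, 1 per condition. The deposited values are raw UMI counts (genes by barcodes), which per the methods a published droplet pipeline produced; per the labels the build was mm10 and Seurat 2.3.4 was used downstream. The study's own cell filter was applied (500 UMIs, 0.2 mitochondrial). It left more cells per condition than the study's plots show, for a reason that is not known, so the cells may not be the same set. Counts were summed per library and cell class and scaled to the class total. Intervals at 95% are exact (Poisson, Clopper-Pearson, conditional binomial for ratios), and doublets were not called. TMM factors came from edgeR 4.0.16; other steps used Python 3.11.15, numpy 2.4.6 and scipy 1.17.1. Of 54146 identifiers 54079 matched GENCODE without version. The ratio step was tested on simulated counts that held counting error only, so the test does not cover variation between cells. The thinning step was checked on the Control library. Barcodes are serial numbers, so those shared between libraries could not be counted.

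The 9 genes and all 14 lists were chosen with earlier results of these data known. Genes eligible for naming were the 9, in each list the 3 highest and the 3 lowest by feeder ratio, the 10 most and 5 least like the sum, and genes defining classes; others were named after their values were seen. One gene is not reported here, and others the rule gives are covered by their list's counts. A column of ambiguous counts served only to check single genes. Alternatives covered scaling, cell definitions, depth, filters and single cells.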

Additional observations from a re-analysis of the deposited data

Results flagged for a closer look

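Cnn1 and Ctgf moved in opposite directions in the 2 cell classes. The log2 ratio of CX-5461 over Control for Cnn1 was -2.40 in feeder cells and 2.87 in ES cells, and for Ctgf it was -1.31 in feeder cells and 0.91 in ES cells. With 1 library per condition the difference between the classes was not tested. In ES cells Cnn1 rests on 6 and 63 UMIs, and 28.4% of all genes were called higher there. Ctgf lost its call in ES cells with TMM scaling, at a ratio of 1.43 (1.21 to 1.68). Its feeder ratio rests on 61 and 28 UMIs, and that call was lost in thinned cells and under some other definitions of a feeder cell.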

How the results depend on the processing

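No paired analysis was possible because the count columns carry no sample number, and for the same reason no replicate could be left out. All values are log2 ratios unless stated. TMM scaling divided the ratios of all genes by 1.12 in feeder cells, by 1.28 in cells below the collagen limit and by 1.32 in those with ES markers. For the sum in feeder cells (-1.33), the direction was kept throughout: -1.50 with TMM, -1.81 at 0.5% collagen, -1.41 as a mean over cells, -1.49 thinned, -1.27 without feeder cells of 3 Pou5f1 UMIs, -1.47 without the highest cell, -1.27 with feeder cells defined by 16 other fibroblast genes, -1.25 with low-collagen fibroblasts added, and -1.93, -0.81 and -1.81 in the rising collagen ranges. The count of 8 genes called became 5 at 0.2 to 0.5% collagen and 6 to 9 elsewhere. In cells below the collagen limit (-1.64), the sum was -2.00 with TMM, -1.25 with a Pou5f1 UMI required, -1.09 as a mean over cells, -1.15 thinned and 0.057 without collagen UMIs, which turns the direction. There Acta2 was at 0.62 and Tpm2 at 0.094. With ES markers required the sum was -0.056 (Tpm2 0.081), with TMM also -0.46, and with 5000 UMIs and 0.1 mitochondrial also -0.086 (Tpm2 0.076). Of 8 calls below the limit, 3 were left without collagen UMIs, 4 with ES markers, 5 with TMM also and 4 with the depth limit also.

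For feeder over ES cells in Control (4.69 over all cells below the limit) the values were 4.34 with TMM, 4.59 at 0.5% collagen, 6.55 without collagen UMIs, 5.57 with Pou5f1, 4.65 at 0.1 mitochondrial, 4.91 as a mean, 4.85 thinned, 4.79 without the highest cell, 6.79 with ES markers, 6.48 with TMM also, 6.77 with the depth limit also, 4.76 by 16 genes, 4.74 with fibroblasts added and 4.88, 4.41 and 4.59 by collagen range. In CX-5461 (5.01) they were, in that order and without the mitochondrial limit, 4.89, 4.42, 5.16, 5.48, 4.59, 4.51, 4.95, 5.51, 5.40, 5.53, 5.14, 5.13, 4.60, 5.25 and 4.42. The share of feeder cells with 10 UMIs of the 9 genes (95.7% and 94.5%) was 81.8% at 0.5% collagen in Control, 66.4% and 17.8% thinned, and 100% at 0.1 to 0.2% collagen in CX-5461. These alternative ES and feeder definitions by marker genes and collagen ranges were chosen after seeing the data. The cause of these shifts was not tested. Of 126 single-gene values in feeder cells all kept their direction. Depth limits Ctgf in feeder cells (61 and 28 UMIs) and Actg2 in ES cells.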
